A study of Mus musculus with 6 samples.

Results

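The genes described here encode enzymes that degrade DNA, with the inhibitor of one of them: Dnase2b, Dnase2a, Dnase1, Dnase1l1, Dnase1l2, Dnase1l3, Endog, Trex1, Dffa and Dffb. They were chosen by name, and their probes were taken from the platform's annotation by gene symbol. Of the 10 genes, 9 had a probe of that symbol, 1 probe each, among 16504 named genes on the array. Dnase2a had none under that symbol or gene ID and was not analysed here. Each nuclease result below therefore rests on a single probe.

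RNA of mature fiber cells was compared with RNA of elongating fiber cells of the mouse lens on 6 two-colour arrays. All cells came from 1 transgenic strain, TgN(GFPU)5Nagy, which carries GFP, so both populations share that transgene. Per the labels' protocols, both zones were placed by the pattern of GFP, whose labelling changes abruptly where the fiber syncytium begins, and were then cut by laser capture from sections 5 µm thick. For 2 of the arrays (lens249 and lens250) the descriptions add that lenses of littermates at postnatal day 5 were pooled, with a minimum of 200 cells taken from about 40 slices. Mature fibers were in channel 1 on arrays lens249, lens487 and lens493, and elongating fibers on arrays lens250, lens488 and lens455. Whether the arrays came from separate animals or RNA extracts is not stated, so p-values measure the spread between arrays, which may be technical.

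Each array gave 1 log ratio per probe. The sign was reversed for lens250, lens488 and lens455, so that all 6 arrays run the same way, and the result is called the turned ratio. If the submitters divided channel 1 by channel 2, a positive turned ratio means more RNA in mature than in elongating fibers, and with the opposite division it means less. The sources used here do not settle which, so a side is given below and not a direction. The base of the logarithm is not stated either, and values are in deposited log units. A ratio carries no level, so whether a gene was strongly or weakly expressed cannot be read from these data. In bulk samples such as these, a difference in the number of cells of a type and a difference in RNA per cell cannot be told apart.

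Lens fibers lose their nuclei and other organelles as they mature, which clears the light path of the lens. Dnase2b, also called DLAD, is an acid nuclease of lysosomes that cuts the DNA of fiber nuclei during this step, and lenses of mice that lack it keep undigested DNA and develop cataract. Dnase2a is its close relative in the lysosomes of macrophages and many other cells. Dnase1 works at neutral pH and needs calcium and magnesium, and Dnase1l1, Dnase1l2 and Dnase1l3 are its relatives. Dffb is the nuclease that cuts chromatin between nucleosomes in apoptosis, and Dffa is the chaperone and inhibitor that caspases cleave to free it. Endog is a mitochondrial nuclease, and Trex1 is an exonuclease that removes DNA from the cytosol.

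Of the 9 measured genes, Dnase2b alone passed the test, which was limma with Benjamini-Hochberg adjustment over all 19624 features at 0.05. Over all features the share called was 1.73%, with 0.372% on the positive side, where Dnase2b lay, and 1.36% on the negative side. The upstream sequence of Dnase2b is shown because it is the gene that differed and because heat shock factor 4 (Hsf4), a lens transcription factor, is needed for normal Dnase2b expression in the mouse lens. The window holds the 250 bases before the start that RefSeq gives on assembly GRCm38.p6, chr3:146615599-146615848, minus strand, printed on the strand of the gene. Capitals mark the match to GAANNTTC, the core letters of a heat shock element.

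Dnase2b: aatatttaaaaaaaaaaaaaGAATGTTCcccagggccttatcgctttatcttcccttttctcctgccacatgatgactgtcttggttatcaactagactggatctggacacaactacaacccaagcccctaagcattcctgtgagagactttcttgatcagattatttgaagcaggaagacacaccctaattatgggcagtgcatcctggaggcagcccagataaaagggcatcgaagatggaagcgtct

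The match begins 230 bases before the start. GAANNTTC reads the same on both strands and stood in 6.69% of the 32851 mouse promoter windows of this length. Of the 9 nuclease genes with a window in the RefSeq table (12 windows, with some genes at several starts), Dnase2b was the 1 gene that held it. These 9 include Dnase2a, which was not measured, so they differ from the 9 measured genes. A match in 1 gene among so few windows is near the share over all windows and does not single out Dnase2b. A match of letters is a description of the sequence and does not show that a factor binds there.

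Dnase2b had turned log ratios of 2.0 on lens249, 1.81 on lens250, 1.4 on lens487, 1.49 on lens488, 2.09 on lens493 and 2.06 on lens455. All 6 arrays lay on the positive side. On each array Dnase2b lay above every other nuclease, whose highest value on any array was 0.74, for Endog on lens250. The mean was 1.81 ± 0.30 (SD, n = 6), with a 95% interval of 1.53 to 2.08 and an adjusted p of 0.0048 in limma. This mean reads as a 3.5-fold difference if the logarithm is to base 2 (2.89 to 4.23), as 6.09-fold if it is natural and as 64.1-fold if it is to base 10. An exact two-sided sign-flip permutation test over the 6 arrays gave p = 0.031, the smallest it can give. By size of the mean ratio Dnase2b ranked 4 among all features, and 5 by p-value. Over all features, 9.17% had one sign on all 6 arrays.

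The size for Dnase2b was close in both orientations. The 3 arrays with mature fibers in channel 1 averaged 1.83, and the 3 with elongating fibers there averaged 1.78. The channel coefficient of the fit, which is the part of a ratio that follows the channel and not the population, was 0.02 (limma adjusted p = 0.96). The labels name no pairs of arrays. As an alternative, arrays of neighbouring title numbers were paired, which joins lens249 to lens250 and lens487 to lens488. This leaves lens455 and lens493, whose numbers are not neighbours, as the last pair. Within these pairs Dnase2b differed by 0.19 between lens249 and lens250, by 0.08 between lens487 and lens488 and by 0.04 between lens493 and lens455, while the pair means were 1.9, 1.44 and 2.07. Across all features, which are not independent replicates, the turned ratios of lens487 and lens488 correlated with r = 0.611 and those of lens493 and lens455 with r = 0.449, against 0.342 at most for any other pair. Lens249 and lens250 correlated with r = 0.137, less than lens249 with lens487 (0.33) or lens250 with lens488 (0.30). Those pairs have like orientation and so share any channel effect. Among pairs of opposite orientation, lens250 had 0.157 with lens487 and 0.155 with lens493. In the same way lens249 had 0.053 with lens488 and 0.038 with lens455. The data therefore do not clearly set lens249 and lens250 apart as a pair. If arrays of a pair share RNA there are 3 replicates and not 6, and on 3 averaged pairs the Dnase2b mean of 1.81 no longer passed (limma adjusted p = 0.25).

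**Figure D1:**
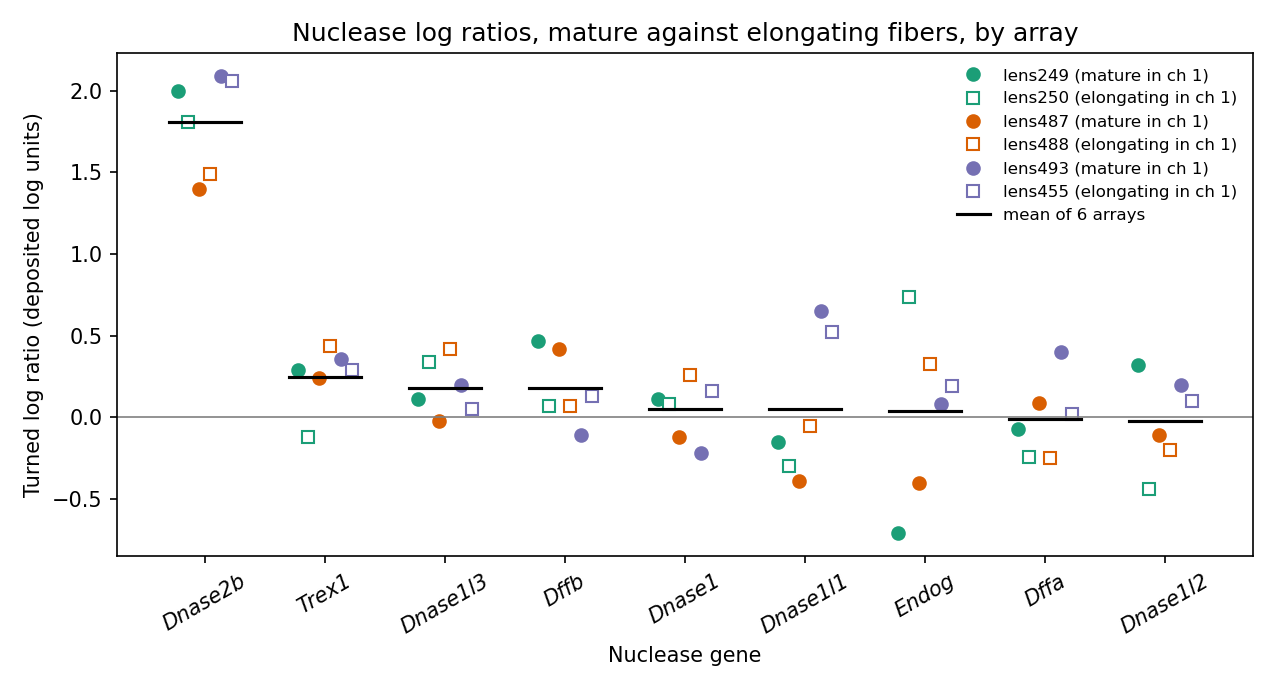
Turned log ratios (y axis, deposited log units) of the 9 measured nucleases (x axis). Each symbol is 1 array, filled for mature and open for elongating fibers in channel 1, with 1 colour for each pair of title numbers, and the black bar is the mean. Dnase2b lies between 1.4 and 2.09, and the other genes lie between -0.71 and 0.74.

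The other 8 nucleases lay closer to 0 than Dnase2b. Their means ran from -0.02 to 0.25, none passed the test (smallest limma adjusted p = 0.22), and none had one sign on all 6 arrays. Their 95% intervals together covered -0.33 to 0.45, and 6 of the 8 held 0. Those of Trex1 (0.05 to 0.45) and Dnase1l3 (0.01 to 0.36) lay above 0. If the logarithm is to base 2, the upper end is a 1.36-fold difference. A p-value that misses the threshold does not show that a gene was equal in both populations, and these intervals give the sizes left possible. The median size of the mean was 0.05 over the 9 genes and 0.09 over all features.

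Among the relatives of Dnase1, the founding member itself, a secreted nuclease of the digestive tract and kidney, had ratios of 0.11 on lens249, 0.08 on lens250, -0.12 on lens487, 0.26 on lens488, -0.22 on lens493 and 0.16 on lens455. The values straddled 0, with a mean of 0.05 ± 0.18 (limma adjusted p = 0.80). Dnase1l3, a nuclease secreted by macrophages and dendritic cells that degrades chromatin released from dead cells, had 0.11, 0.34, -0.02, 0.42, 0.20 and 0.05 on the arrays in the same order. It lay above 0 on 5 of 6 arrays, with a mean of 0.18 ± 0.17, an unadjusted p of 0.04 and an adjusted p of 0.28 in limma. Unadjusted p-values under 0.05 were found for 16.2% of all features.

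Dnase1l2, which takes part in the breakdown of nuclear DNA in cornified skin cells, had 0.32 on lens249, -0.44 on lens250, -0.11 on lens487, -0.20 on lens488, 0.20 on lens493 and 0.10 on lens455. No side was kept, and the mean was -0.02 ± 0.28 (limma adjusted p = 0.94). Dnase1l1, a membrane-bound relative found in muscle, had -0.15, -0.30, -0.39, -0.05, 0.65 and 0.52 on the arrays in the same order. Its mean of 0.05 ± 0.43 (limma adjusted p = 0.92) joined 4 arrays below 0 with 2 above. The 2 were lens493 and lens455, whose pair mean was 0.58, against -0.22 for each of the other pairs.

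The apoptotic nuclease and its inhibitor both missed the threshold. Dffb had 0.47 on lens249, 0.07 on lens250, 0.42 on lens487, 0.07 on lens488, -0.11 on lens493 and 0.13 on lens455. It lay above 0 on 5 arrays, with a mean of 0.18 ± 0.23 and a 95% interval of -0.04 to 0.39 (limma adjusted p = 0.40). Dffa had -0.07, -0.24, 0.09, -0.25, 0.40 and 0.02 on the arrays in the same order. Its arrays were split evenly about 0, and its mean of -0.01 ± 0.24 had an interval of -0.20 to 0.18 (limma adjusted p = 0.97).

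Trex1 had the largest mean after Dnase2b, with 0.29 on lens249, -0.12 on lens250, 0.24 on lens487, 0.44 on lens488, 0.36 on lens493 and 0.29 on lens455. Lens250 was the only array below 0. The mean was 0.25 ± 0.19 with a 95% interval of 0.05 to 0.45, an unadjusted p of 0.021 and an adjusted p of 0.22 in limma. Endog had -0.71, 0.74, -0.40, 0.33, 0.08 and 0.19 on the arrays in the same order, and its mean was 0.04 ± 0.52 (limma adjusted p = 0.92). Its values were widely spread, below 0 on 2 of the 3 arrays with mature fibers in channel 1 and above 0 on the 3 others and on lens493.

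Endog was more one-sided before turning than after it. As deposited, its ratios were -0.692 on lens249, -0.731 on lens250, -0.409 on lens487, -0.315 on lens488, 0.089 on lens493 and -0.164 on lens455, so 5 of 6 lay below 0 whichever population was in channel 1. The 3 turned arrays with mature fibers in channel 1 averaged -0.35 and the 3 with elongating fibers there 0.42. Its channel coefficient was -0.38 (unadjusted p = 0.015, limma adjusted p = 0.29), which did not pass. For 4 of the 9 nucleases (Endog, Dnase1, Dnase1l2 and Dffa) the channel coefficient was larger in size than the population coefficient, as it was for 47.9% of all features. No channel coefficient passed the threshold for any of the 19624 features, while 12.6% had an unadjusted p under 0.05.

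**Figure D2:**
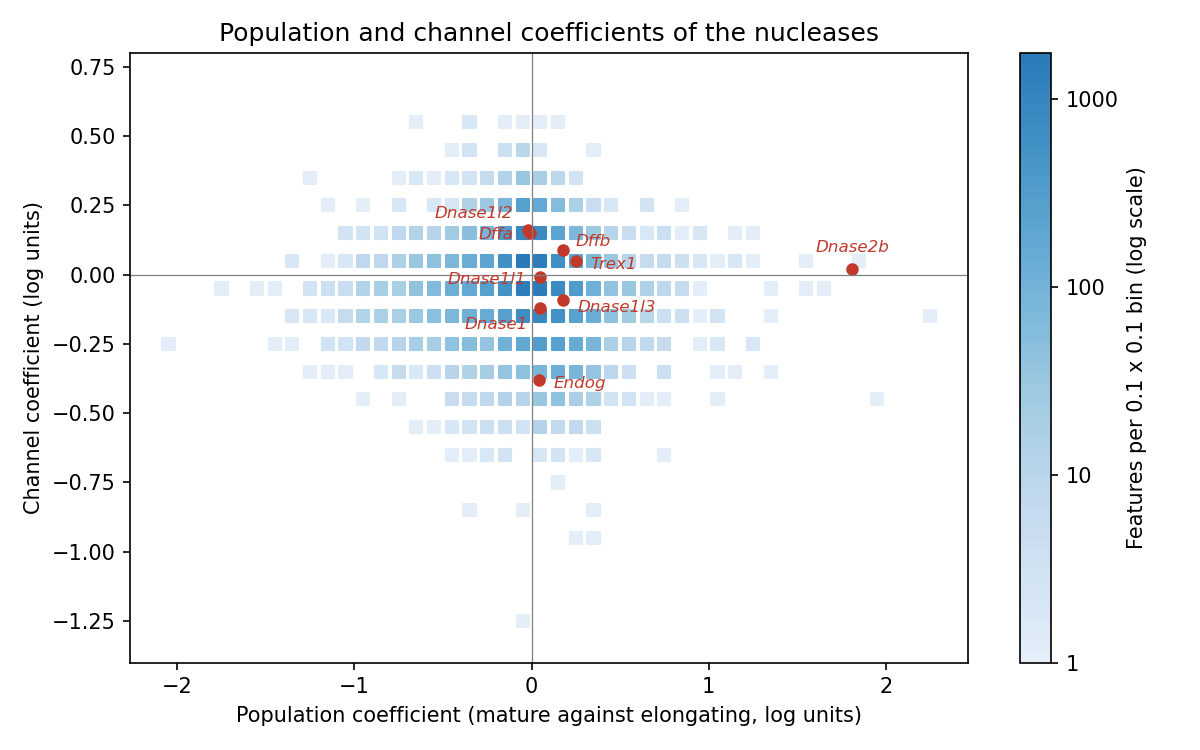
Population coefficient (x axis) against channel coefficient (y axis) of the limma fit, both in deposited log units. Blue squares count all features in bins on a log colour scale, and red points are the 9 nucleases. Dnase2b lies at 1.81 and 0.02, and Endog lies at 0.04 and -0.38.

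The 5 named genes whose 6 ratios were nearest to those of Dnase2b, by root mean square difference over the arrays, were Rnf180 (0.36), Rubcn (0.49), Plekhs1 (0.51), Lctl (0.56) and Elavl4 (0.58). Rnf180, a ubiquitin ligase, had 1.48 on lens249, 1.32 on lens250, 1.17 on lens487, 1.25 on lens488, 2.09 on lens493 and 2.46 on lens455. As for Dnase2b, its lowest values were on lens487 and lens488. Rubcn, a negative regulator of autophagy, averaged 1.53 ± 0.33 and had its lowest value, 0.98, on lens249. Plekhs1 averaged 1.38 ± 0.55 and ran lowest on lens487 (0.69) and lens488 (0.87). Lctl, a klotho family gene of the lens, averaged 1.28 ± 0.43, and Elavl4, an RNA-binding protein of neurons, 1.57 ± 0.77. In the order of mean ratios among named genes, Gadd45b (1.99 ± 0.70) stood just above Dnase2b and Rnf180 (1.63 ± 0.53) just below. The intervals of both, 1.54 to 2.44 and 1.18 to 2.08, overlapped that of Dnase2b, so the order of these neighbours is not settled.

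**Figure D3:**
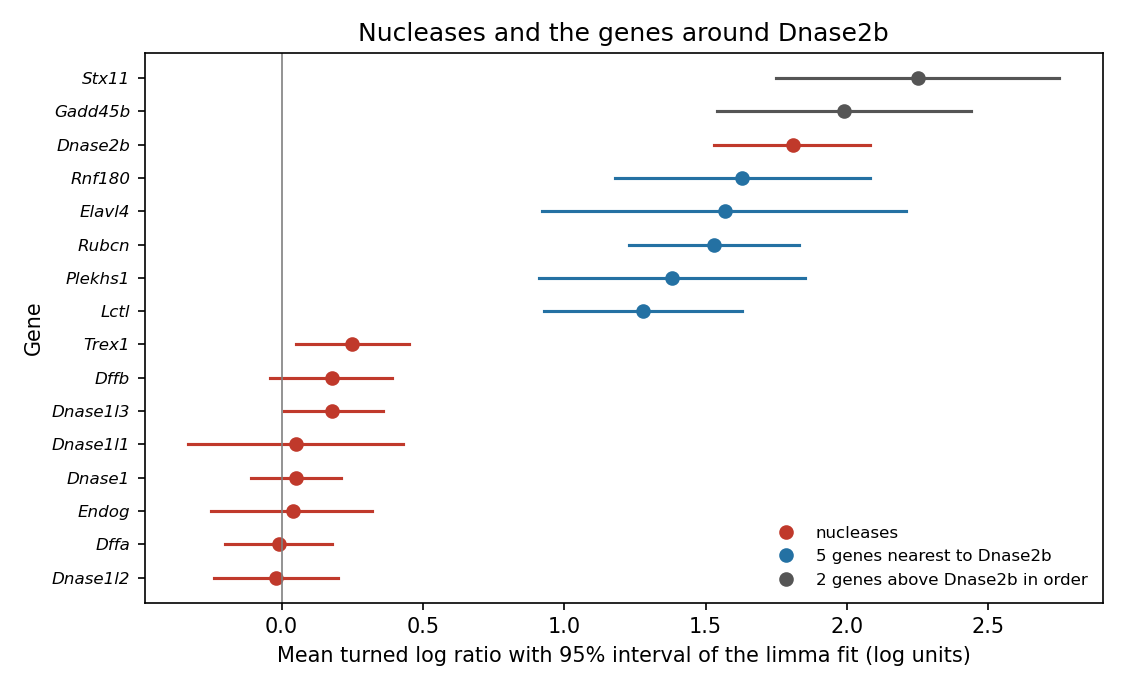
Mean turned log ratio (points, x axis, deposited log units) with the 95% interval of the limma fit (lines) for the 9 nucleases in red, the 5 genes nearest to Dnase2b in blue and the 2 genes above it in grey. The interval of Dnase2b, 1.53 to 2.08, lies apart from those of the other nucleases, which end at 0.45.

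Genes that act beside these nucleases were measured in the same fit. Of 45 measured other nucleases and partners, 0 passed on either side in limma, against 1.73% of all features. At an unadjusted p under 0.05 in limma there were 4 of the 45, against 16.2% of all features. Their median ratio was -0.02, against 0.003 over all features. Endod1, an endonuclease domain gene, had the lowest p among them (-0.48 ± 0.39, limma adjusted p = 0.13). Trex2, the exonuclease closest to Trex1, had 0.24 ± 0.34 (limma adjusted p = 0.19). It averaged -0.04 with mature fibers in channel 1 and 0.51 with elongating fibers there. Exog, the paralog of Endog, had -0.05 ± 0.09 (limma adjusted p = 0.75), and Pld3, a lysosomal exonuclease of single-stranded DNA, had -0.02 ± 0.36 (0.96).

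In the caspase and DNA fragmentation pathway upstream of Dffa and Dffb, 1 of 29 measured genes passed, on the negative side. Over all features 1.36% passed on that side. The gene was Htra2, a mitochondrial protease (-0.46 ± 0.08, limma adjusted p = 0.021), and the median of the list was 0.02. Casp9, the initiator caspase of the mitochondrial pathway, had 0.31 ± 0.29, with all 6 arrays above 0, and did not pass (limma adjusted p = 0.086). It averaged 0.07 with mature fibers in channel 1 and 0.55 with elongating fibers there. Its channel coefficient was -0.24 (limma unadjusted p = 0.01, adjusted p = 0.28). Casp6, an executioner caspase, had -0.03 ± 0.23. Cidea and Cideb, which share a domain with the DNA fragmentation factors, had -0.06 ± 0.15 and 0.14 ± 0.18. Htra2 did not pass in any fit that left out 1 array.

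Of 54 measured lysosomal genes, whose products share a compartment with Dnase2b, 13 had a mean above 0, whereas 51.0% of all features did, and the median was -0.06. At an unadjusted p under 0.05 there were 13 of the 54, against 16.2% of all features. In limma 1 passed on the positive side and 1 on the negative side, which is 3.7% of the list, against 1.73% of all features. Ctsl, a cysteine protease that degrades protein where Dnase2b degrades DNA, lay opposite to Dnase2b at -1.36 ± 0.20 (limma adjusted p = 0.0034). Atp6ap2, which assists the proton pump that acidifies lysosomes, lay with Dnase2b at 0.50 ± 0.37 (limma adjusted p = 0.028). It averaged 0.19 with mature fibers in channel 1 and 0.81 with elongating fibers there. Its call did not hold in any fit that left out 1 array, without the channel term (limma adjusted p = 0.099) or with quantile normalization (0.055). Lamp1, a major membrane protein of lysosomes, had -0.33 ± 0.19 (limma adjusted p = 0.12) and Ctsd, an aspartic protease, -0.27 ± 0.43 (0.41).

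Sensors and responders of cytosolic DNA, which react when DNA is left undigested, gave 0 passes in limma among 30 measured genes, with 5 at an unadjusted p under 0.05. Their median was 0.04. Isg15, an interferon-induced gene, had the lowest p (0.24 ± 0.13, limma adjusted p = 0.14). Among 34 measured genes of fiber denucleation 0 passed, 4 had an unadjusted p under 0.05 and the median was -0.03. Over all features 1.73% passed in limma and 16.2% had an unadjusted p under 0.05, so few passes were to be had in lists of this length. Cdkn1c, a cyclin-dependent kinase inhibitor, had the lowest p of the denucleation genes (-0.61 ± 0.32, limma adjusted p = 0.060). Hsf4 itself had 0.05 ± 0.17, with 3 arrays on each side (limma adjusted p = 0.81). Smarca4, the chromatin remodeller whose loss of function lowers Dnase2b in the mouse lens, had 0.10 ± 0.23 (limma adjusted p = 0.60).

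**Figure D4:**
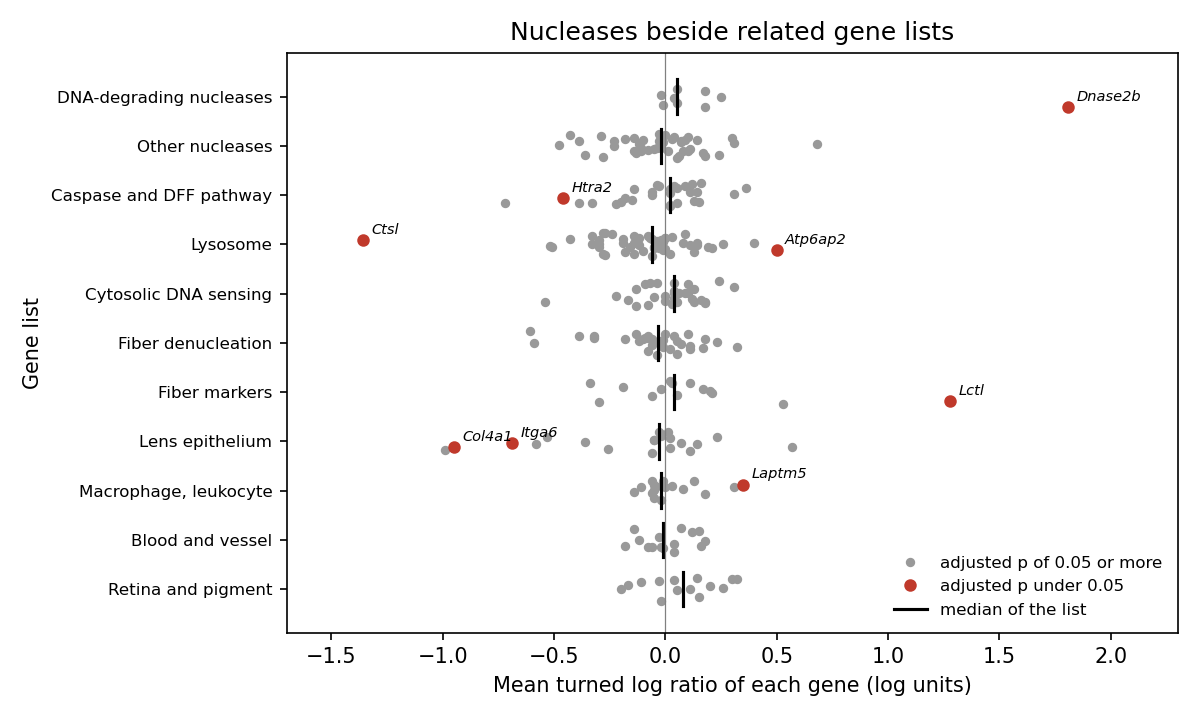
Mean turned log ratio of each gene (points, x axis, deposited log units) in the nucleases and 10 related lists (y axis). Red points have an adjusted p under 0.05 and are named, grey points do not, and black bars are medians, which lie between -0.06 and 0.08. Dnase2b is the farthest from 0 of all points.

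Markers of other cells were measured in the same fit, in which 1.73% of all features passed and 16.2% had an unadjusted p under 0.05. Of 17 macrophage and leukocyte markers 1 passed, Laptm5, on the side of Dnase2b (0.35 ± 0.21, limma adjusted p = 0.039). Laptm5 averaged 0.17 with mature fibers in channel 1 and 0.53 with elongating fibers there. Its call was lost in each fit that left out 1 array, with the title pair as a replicate block (adjusted p = 0.051) and without the channel term (0.094). Of the 17 markers 7 had a mean above 0, 2 had an unadjusted p under 0.05 in limma, and the median was -0.02. The mean of that list lay between -0.02 and 0.14 on the 6 arrays. Of 21 lens epithelium markers 2 passed, opposite to Dnase2b: the collagen Col4a1 (-0.95 ± 0.38, limma adjusted p = 0.030) and the integrin Itga6 (-0.69 ± 0.30, limma adjusted p = 0.041). Col4a1 kept its call in 1 of the 6 fits without 1 array. Itga6 kept it in 0 of them and lost it with scaled arrays (adjusted p = 0.060) and with each probe tested on its own (0.11). In that list 9 of 21 genes had an unadjusted p under 0.05, and 8 of 21 had a mean above 0, the highest at 0.57. The median was -0.03, and the mean of the list lay between -0.31 and -0.03 on the 6 arrays. Of 15 blood and vessel markers and 14 retina and pigment markers 0 passed in limma, with 1 and 4 at an unadjusted p under 0.05, and their means lay between -0.08 and 0.11 and between -0.03 and 0.17. The lowest p in each was that of the embryonic globin Hbb-bh1 (0.18 ± 0.21, limma adjusted p = 0.28) and of the rod transducin Gnat1 (0.30 ± 0.23, limma adjusted p = 0.18). Of 14 fiber markers Lctl passed, and the mean lay between -0.27 and 0.52. The part of other cells in the Dnase2b difference was not tested, and ratios do not show whether a defining marker was present at all.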

How the data were processed

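RNA of laser-captured mature and elongating lens fibers was compared on 6 two-colour arrays, 3 per orientation. The values deposited by the authors are log ratios of the 2 channels for 22575 probes. Log2 is the working reading of the deposited values. The sources used here give no base, numerator, scanner, background correction or normalization. There are no intensities, so a single ratio has no known precision and the number of arrays limits it.

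Of the probes, 18218 had 1 symbol in the platform annotation, 16 several and 4341 none. Of the first, 18175 matched the RefSeq gene table by gene ID. Duplicated rows were merged. Unlisted probes repeated with the same values 49 times or more (10 sets, 1032 probes) were dropped as probable controls. Arrays were centred on their medians and turned, and probes of a gene were averaged, which left 19624 features. Population and channel terms were fitted with limma 3.58.1 (lmFit, eBayes; R 4.3.3) and tested two-sided, adjusted over all features. The script was tested on simulated data. SDs include the channel effect, which the test fits separately. Alternatives changed the channel term, centring, scaling, array weights, variance prior, probe handling, pairing of arrays by title number and the arrays used.

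Members and lists were chosen with earlier results of these data known. Genes named were all members, up to 6 genes that passed in each list (otherwise the gene with the lowest p), the 5 nearest to Dnase2b and its neighbours in order. Outside that rule, Casp6, Casp9, Cidea, Cideb, Trex2, Exog, Pld3, Lamp1, Ctsd, Hsf4 and Smarca4 were named for their roles, after values of these data had been seen. Figures were drawn with matplotlib 3.10.9.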

Additional observations from a re-analysis of the deposited data

Results flagged for a closer look

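Of 38 genes examined (the nucleases and each other gene named in the text), 2 had a single array well apart from the remaining 5. Chance gives about 1 in 20, or 1.9. Trex1 had -0.123 on array lens250, where the other arrays lay between 0.24 and 0.438. Endod1 had -1.23 on array lens493, where the others lay between -0.527 and -0.148.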

How the results depend on the processing

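Dnase2b stayed on the positive side under all 18 alternatives and past the threshold in 15. It passed in each of the 6 fits without 1 array, with means of 1.74 to 1.91 and limma adjusted p of 0.02 to 0.032. It missed the threshold on 3 averaged title pairs (mean 1.81, limma adjusted p = 0.25) and with either orientation alone, at 1.83 for mature fibers in channel 1 (0.16) and 1.78 for elongating fibers there (0.20). Those 3 settings have fewer residual degrees of freedom, and each called 0 features and 0 nucleases in limma. With the title pair as a replicate block (consensus correlation 0.129) Dnase2b passed at limma adjusted p = 0.0057, and 282 features passed against 339. Of the other named genes that passed, Laptm5 alone lost its call under the block (0.051). Array weights gave 656. Leaving out 1 array gave 16 to 117: 117 with lens249 left out, 102 with lens250, 84 with lens455, 71 with lens493, 38 with lens487 and 16 with lens488. Dnase2b was the 1 nuclease called each time. Stx11 and Ctsl kept their call in 6 of the 6 fits without 1 array, Gadd45b and Rubcn in 5, Lctl in 3, Rnf180 in 2, Col4a1 in 1 and Elavl4, Plekhs1, Htra2, Itga6, Atp6ap2 and Laptm5 in 0.

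Nucleases that did not pass changed side in some settings, none with a call. Dffa had 0.00597 with quantile normalization, 0.137 with mature fibers in channel 1 only and -0.0755 to 0.0417 without 1 array. Endog had -0.0267 with scaled arrays, -0.0424 with quantile normalization, -5.77e-05 with array weights, -0.346 with mature fibers in channel 1 only and -0.0682 to 0.127 without 1 array. With mature fibers in channel 1 only, Dnase1 had -0.076 and Dnase1l2 0.138, and without 1 array they had -8.33e-05 to 0.0814 and -0.0923 to 0.0424. Dnase1l1 had -0.0535 with array weights and -0.106 to 0.154 without 1 array. The cause of these changes was not tested.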
